A study of Mus musculus with 8 samples.

Results

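The genes described here are 10 components and readouts of bone morphogenetic protein (BMP) signalling, taken by gene name from 31228 genes in a table of expression levels. They comprise the ligand genes Bmp2 and Bmp4, the secreted antagonist gene Grem1, the membrane pseudoreceptor gene Bambi, the inhibitory Smad genes Smad6 and Smad7, and the Id genes Id1, Id2, Id3 and Id4.

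BMPs are secreted dimers of the TGF-beta superfamily that bind type I and type II receptor kinases, which phosphorylate Smad1, Smad5 and Smad9. These enter the nucleus with Smad4 and turn on target genes, of which Id1, Id2 and Id3 are the best known; Id proteins hold E proteins, a class of helix-loop-helix transcription factors, off DNA. Smad6, Smad7, Bambi and Grem1 restrain the signal at the levels of the Smads, the receptors and the ligands, and in gut and duct tissue ligands and antagonists are largely made by stromal cells that lie beside the epithelium.

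RNA was sequenced from 8 samples of C57BL/6 mice: 1 extrahepatic bile duct epithelium, 1 pancreatic duct epithelium, 3 bile duct organoid cultures and 3 pancreatic duct organoid cultures. The study compared the ducts of these organs with each other, both as tissue and as organoids, which are hollow epithelial cultures grown in a gel. Ducts were dissected by hand, minced and digested with collagenase IV; the epithelia then went into Trizol with no culture and no sorting step named in the labels, while the cultures were set up in Matrigel and harvested at passage 3 to 4. All organoids were kept in the same medium, which held 25 ng/mL Noggin, a secreted BMP antagonist, with 50 ng/mL EGF, 100 ng/mL FGF10 and 100 ng/mL R-Spondin-1. Wnt3A-conditioned medium and the ROCK inhibitor Y27632 were present at first and were withdrawn once hollow organoids had formed. No organoid was grown without Noggin, so culture and Noggin cannot be told apart. Age, sex and the number of animals behind each sample are not given in the labels, and nothing says that the cultures came from separate animals. P-values therefore measure the spread between these samples, which may be technical. With 1 epithelium per organ, the spread between epithelium samples of an organ was not measured. Tests of organoids against epithelia thus rest mainly on the spread between organoids.

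Levels are FPKM, that is fragments or reads set against exon length and library size, scaled between libraries, and the FPKM steps imply 12876463 to 20828222 reads per library. In the epithelia, transcripts of other cell kinds were abundant. The sum over 8 fibroblast markers was 1909 FPKM in bile duct and 2002 FPKM in pancreatic duct epithelium, against 0.161 to 2.465 FPKM in the organoids, where Lum was at 0 throughout. Over 8 smooth muscle and pericyte markers the sums were 2542 and 4331 FPKM against 0.352 to 1.74 FPKM, and over 8 endothelial markers 699 and 1143 FPKM against 0.214 to 0.381 FPKM. Acinar markers of the exocrine pancreas summed to 23250 and 48650 FPKM in the epithelia and to 1.62 to 7.54 FPKM in the organoids, with Cpa1, Cpb1, Pnlip and Clps at 0 in all 6. The 9 duct epithelial markers summed to 2574 FPKM in bile duct epithelium, 563 FPKM in pancreatic duct epithelium and 4206 to 10620 FPKM in the organoids. The libraries labelled epithelium thus held duct, stromal, vascular and acinar RNA. Immediate early genes, which respond to tissue handling, summed to 2548 and 3292 FPKM in the epithelia and 187 to 452 FPKM in the organoids.

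Promoter sequence is shown for 4 members, of which Id4, Bmp4 and Grem1 had lower levels in every organoid than in both epithelia and Smad6 did not. Of the 10 members, 6 had a window in the RefSeq table for GRCm38.p6; those of Id2 and Id3 lie inside the gene as the deposited table places it and are not printed. Each sequence is the 250 bases before the RefSeq start, 5′ to 3′ on the gene's strand. Capitals mark GGCGCC, a GC-rich element bound by Smad1 and Smad5, and GTCT, the core of the Smad-binding element, searched on both strands so that AGAC is its reverse; the motifs cannot overlap.
Id4: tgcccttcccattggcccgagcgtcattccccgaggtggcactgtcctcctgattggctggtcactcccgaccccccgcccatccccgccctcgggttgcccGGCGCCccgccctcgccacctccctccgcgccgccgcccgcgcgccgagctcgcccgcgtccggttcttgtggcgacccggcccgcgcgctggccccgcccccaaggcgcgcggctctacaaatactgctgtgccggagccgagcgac
Smad6: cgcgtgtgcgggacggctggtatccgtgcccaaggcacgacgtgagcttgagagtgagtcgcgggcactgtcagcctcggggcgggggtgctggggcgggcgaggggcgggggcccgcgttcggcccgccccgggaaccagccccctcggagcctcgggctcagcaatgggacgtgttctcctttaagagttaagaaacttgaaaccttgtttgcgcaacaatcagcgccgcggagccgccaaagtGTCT
Bmp4: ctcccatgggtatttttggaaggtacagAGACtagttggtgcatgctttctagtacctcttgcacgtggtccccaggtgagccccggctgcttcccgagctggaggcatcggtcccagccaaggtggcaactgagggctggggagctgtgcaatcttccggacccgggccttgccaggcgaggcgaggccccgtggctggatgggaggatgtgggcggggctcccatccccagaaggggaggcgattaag
Grem1: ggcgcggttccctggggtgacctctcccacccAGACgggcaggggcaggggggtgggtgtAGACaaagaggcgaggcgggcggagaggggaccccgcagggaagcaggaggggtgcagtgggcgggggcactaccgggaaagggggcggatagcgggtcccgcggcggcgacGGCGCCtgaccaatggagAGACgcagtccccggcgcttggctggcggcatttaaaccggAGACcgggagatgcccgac
The windows are chr13:48260866-48261115 (plus strand) for Id4, chr9:64022060-64022309 (minus) for Smad6, chr14:46390670-46390919 (minus) for Bmp4 and chr2:113758649-113758898 (minus) for Grem1. Id4 held 1 copy of GGCGCC and no GTCT. Grem1 held 1 copy of GGCGCC and 4 of GTCT, and Smad6 and Bmp4 each held 1 GTCT and no GGCGCC. Of the windows not printed, Id2 held 1 GGCGCC and 1 GTCT, and Id3 held no GGCGCC and 2 GTCT. Among 32851 windows of this length, 9.59% held GGCGCC and 82.9% held GTCT. The Id4 window was 75.6% G and C, Grem1 72%, Smad6 66.8% and Bmp4 63.2%, against a median of 52.4% over all windows. These matches describe letters only.

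The first comparison asks how the level of each gene differed between fresh tissue and organoids. Of the 10 members, 6 were lower in organoids than in epithelia and passed the test (Bmp2, Bmp4, Grem1, Bambi, Id3 and Id4), and none was higher. Id1, Id2 and Smad7 were within 0.23 log2 units of the epithelia, and Smad6 lay between (log2 difference -0.92, SE 0.42, limma adjusted p = 0.0983). The test was limma with organ as a term, on log2(scaled FPKM + 1) over 8 libraries and with Benjamini-Hochberg adjustment over 14919 genes. Of those genes 57.4% passed, 31.1% as lower and 26.3% as higher, so a lower level in organoids was common in the table. Bmp2, Bambi and Grem1 entered the test through the epithelia alone and had to differ; without any filter, the same number of members was called lower (6), against 25.6% of 29890 genes. In bulk RNA, fewer cells of a type and less RNA per cell cannot be told apart.

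**Figure D1:**
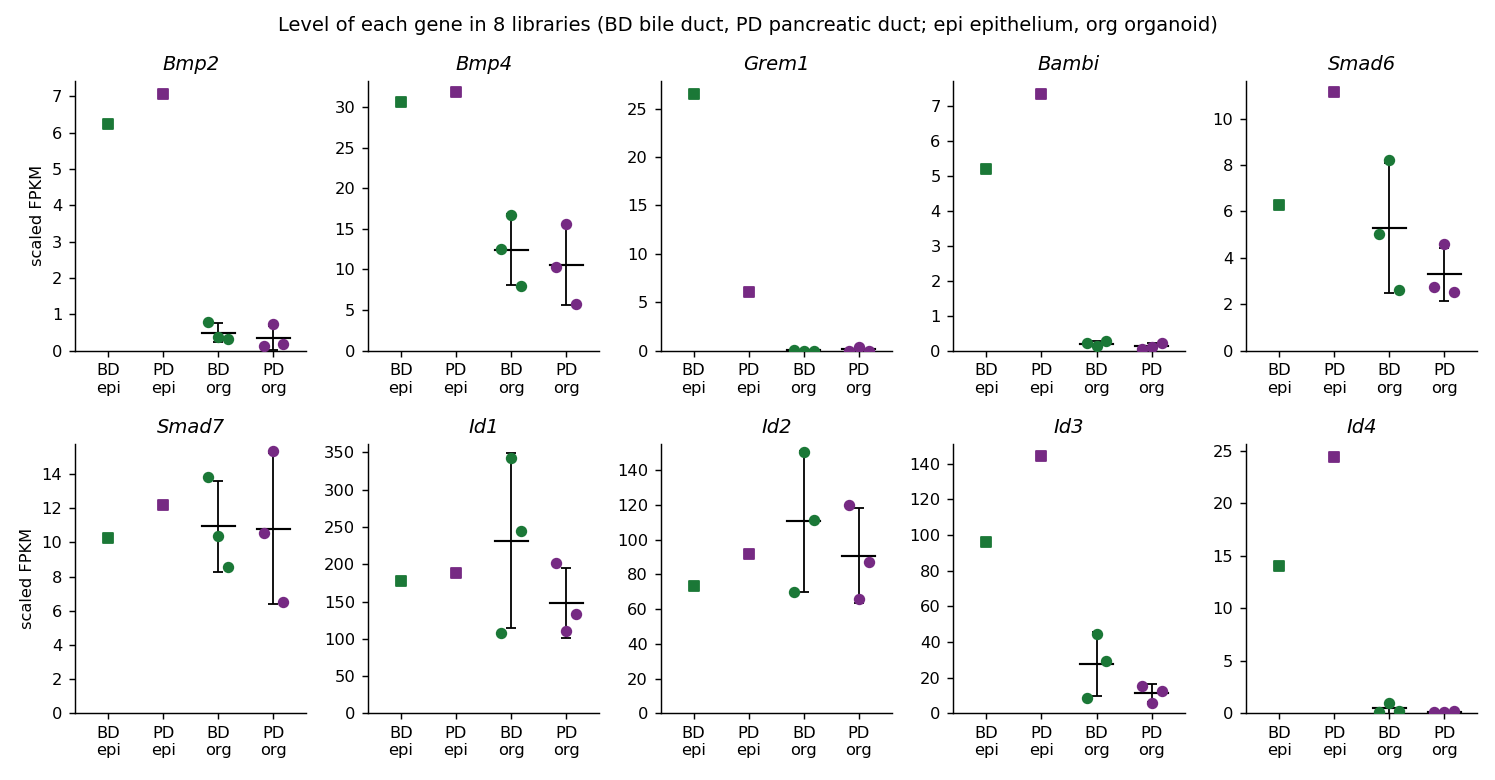
Each panel plots 1 member, with scaled FPKM on a linear axis from 0 for the bile duct (green) and pancreatic duct (purple) epithelia (squares, 1 library each) and organoids (points, 3 libraries each, with mean and SD as bars). The organoid points of Bmp2, Grem1, Bambi and Id4 lie near 0, those of Bmp4 and Id3 lie under both squares, and those of Id1, Id2 and Smad7 lie on both sides of the squares.

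Both ligand genes were lower in organoids, and Bmp4 remained the more abundant of the pair. Bmp2 (chr2:133552159-133562885, plus strand) measured 6.245 FPKM in bile duct epithelium and 7.07 FPKM in pancreatic duct epithelium. In bile duct organoids 1, 2 and 3 it measured 0.789, 0.378 and 0.325 FPKM, and in pancreatic duct organoids 1, 2 and 3 it measured 0.123, 0.727 and 0.185 FPKM. All organoids lay well under both epithelia; bile duct organoid 1 and pancreatic duct organoid 2 were the highest of the 6. The mean level in the epithelia was 15.8 times that in the organoids, and the log2 difference was -2.45 (SE 0.21, limma adjusted p = 6.87e-05).

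Bmp4 (chr14:46383520-46390669, minus strand; promoter above) measured 30.6 FPKM in bile duct and 31.9 FPKM in pancreatic duct epithelium. Its bile duct organoid values were 12.5, 16.7 and 7.98 FPKM, and its pancreatic duct organoid values were 10.3, 15.6 and 5.74 FPKM. The epithelia were close to each other and above every organoid, and the organoid groups overlapped. Epithelia exceeded organoids by 2.72 times in mean level, a log2 difference of -1.45 (SE 0.37, limma adjusted p = 0.0133). Leaving out either epithelium ended this call (adjusted p = 0.0557 without bile duct and 0.106 without pancreatic duct epithelium), with differences of -1.72 and -1.39. The antisense gene Gm15222 overlaps Bmp4 and was listed at 1.12 to 2.81 FPKM before scaling; whether counting used strand is not given in the sources used here.

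Grem1 (chr2:113746164-113758646, minus strand; promoter above) encodes Gremlin 1, which binds BMP2, BMP4 and BMP7 outside the cell. It measured 26.5 FPKM in bile duct epithelium, from 1204 reads, and 6.02 FPKM in pancreatic duct epithelium, from 323 reads. Bile duct organoids 1, 2 and 3 gave 0.0663, 0 and 0.0121 FPKM, and pancreatic duct organoids 1, 2 and 3 gave 0, 0.371 and 0.0211 FPKM. These levels rest on 5, 0, 1, 0, 28 and 2 reads in the same order, so only pancreatic duct organoid 2 had more than a handful of reads. The log2 difference between organoids and epithelia was -3.70 (SE 0.42, limma adjusted p = 0.000303), and it understates a ratio at such low levels. Fibroblast and smooth muscle markers, given above, were near 0 in the same organoids, and their part in the difference was not tested.

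Bambi, on chromosome 18, encodes a receptor-like protein without a kinase that blocks BMP and TGF-beta receptor complexes. It measured 5.18 FPKM in bile duct and 7.35 FPKM in pancreatic duct epithelium. Organoid values were 0.207, 0.129 and 0.269 FPKM for bile duct and 0.0496, 0.120 and 0.217 FPKM for pancreatic duct. No organoid came near an epithelium, and the organoid groups overlapped. The epithelial mean was 37.9 times the organoid mean, with a log2 difference of -2.63 (SE 0.14, limma adjusted p = 5.95e-06). Endothelial markers were at or near 0 in the organoids as well, and their part in the difference was not tested.

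The inhibitory Smads, which block receptor Smads inside the cell and are themselves induced by the pathway, did not pass the test. Smad6 (chr9:63953076-64022059, minus strand; promoter above) measured 6.27 FPKM in bile duct and 11.2 FPKM in pancreatic duct epithelium. Its organoid values were 5.05, 8.22 and 2.60 FPKM for bile duct and 2.75, 4.60 and 2.51 FPKM for pancreatic duct. Bile duct organoid 2 lay between the epithelia, and the other 5 lay under both. Without that organoid the log2 difference was -1.11 and the call changed (limma adjusted p = 0.0311). It was -1.65 without the bile duct epithelium (adjusted p = 0.0549) and -0.40 without the pancreatic duct epithelium (adjusted p = 0.591).

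Smad7, on chromosome 18, which acts on BMP and TGF-beta receptors alike, measured 10.3 FPKM in bile duct and 12.2 FPKM in pancreatic duct epithelium. Organoid values were 13.8, 10.4 and 8.59 FPKM for bile duct and 10.6, 15.3 and 6.52 FPKM for pancreatic duct. Of the 6 organoids, 2 were above both epithelia and 2 below both. Its log2 difference was -0.08 (SE 0.30, limma adjusted p = 0.825), and with the deposited values unscaled it was 0.21, so no direction can be given.

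The Id genes divided into a pair whose tissue and organoid levels overlapped and a pair that fell. Id1 (chr2:152736251-152737410, plus strand) was the most abundant member in each of the 8 libraries. It measured 177 FPKM in bile duct and 189 FPKM in pancreatic duct epithelium. Its organoid values were 108, 342 and 245 FPKM for bile duct and 201, 111 and 133 FPKM for pancreatic duct. Of the organoids, 3 lay above both epithelia and 3 below both. The log2 difference was -0.08 (SE 0.44, limma adjusted p = 0.890), and its sign changed with the scaling (0.25 on deposited values).

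Id2 (chr12:25093799-25097140, minus strand) measured 73.6 FPKM in bile duct and 91.4 FPKM in pancreatic duct epithelium. Bile duct organoids gave 69.6, 150 and 112 FPKM, and pancreatic duct organoids gave 120, 65.6 and 86.9 FPKM. Here too the organoids spanned the epithelia, with 3 above both and 2 below both. Its log2 difference was 0.23 (SE 0.33, limma adjusted p = 0.580).

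Id3 (chr4:136143497-136145755, plus strand) measured 96.1 FPKM in bile duct and 144 FPKM in pancreatic duct epithelium. Its organoid values were 8.695, 44.5 and 29.6 FPKM for bile duct and 15.3, 5.68 and 12.8 FPKM for pancreatic duct. Every organoid lay under both epithelia, yet the organoids differed among themselves by 7.84 times, the widest span of any member that reached 1 FPKM in all of them. Epithelia exceeded organoids 6.18 times in mean level, a log2 difference of -2.85 (SE 0.67, limma adjusted p = 0.00925). Without the pancreatic duct epithelium it was -2.13 and no longer passed (adjusted p = 0.116).

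Id4 (chr13:48261427-48264036, plus strand; promoter above) measured 14.03 FPKM in bile duct and 24.4 FPKM in pancreatic duct epithelium. Organoid values were 0.0994, 1.03 and 0.272 FPKM for bile duct and 0.151, 0.0994 and 0.184 FPKM for pancreatic duct. Only bile duct organoid 2 reached 1 FPKM, and it stood apart from the other 5. The log2 difference was -3.94 (SE 0.30, limma adjusted p = 3.83e-05), and it passed without either epithelium. The antisense gene A330033J07Rik overlaps Id4 and was listed at 0 to 0.331 FPKM before scaling, a level like that of Id4 in the other 5 organoids, so the order of Id4 among these is uncertain. The nerve marker sum was 72.35 and 104.6 FPKM in the epithelia and 1.43 to 11.53 FPKM in the organoids. Among organoids that sum was highest in bile duct organoid 1 and pancreatic duct organoid 2, where Id4 was listed lowest. The fibroblast, smooth muscle, endothelial and acinar sums, given above, were also lower in organoids. The part of these cell kinds in the difference was not tested.

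All 6 organoids lay below both epithelia for 6 of the 10 members, against 33.2% of genes tested, and above both for 0 members, against 29.4%. When either epithelium was left out, Bmp2, Bambi and Grem1 fell under the filter. Of the other 7 members, 2 (Id3 and Id4) were then called without the bile duct epithelium and 1 (Id4) without the pancreatic duct epithelium.

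Each organ was then set against its own epithelium, which is 1 library, so these changes carry no test. A gene was counted where the mean log2 difference reached 1 and all 3 organoids lay on 1 side. In bile duct 6 members were counted, all lower, against a background of 38.6% of 15227 genes in either direction, 26.6% lower and 12% higher. In pancreatic duct 7 members were counted, all lower, against 40.2% of 14984 genes in either direction, 25.5% lower and 14.7% higher; the additional member was Smad6. Id3 differed by -2.03 ± 1.16 (SD, n = 3) in bile duct and by -3.66 ± 0.68 (SD, n = 3) in pancreatic duct. Smad6 differed by -0.31 ± 0.68 (SD, n = 3) in bile duct and by -1.54 ± 0.36 (SD, n = 3) in pancreatic duct; the bile duct value was -0.64 without bile duct organoid 2 and 0.04 without bile duct organoid 3. Grem1 differed by -4.75 ± 0.05 (SD, n = 3) in bile duct and by -2.65 ± 0.25 (SD, n = 3) in pancreatic duct, where its epithelial level was lower to begin with. Whether these changes differ between the organs was not tested.

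**Figure D2:**
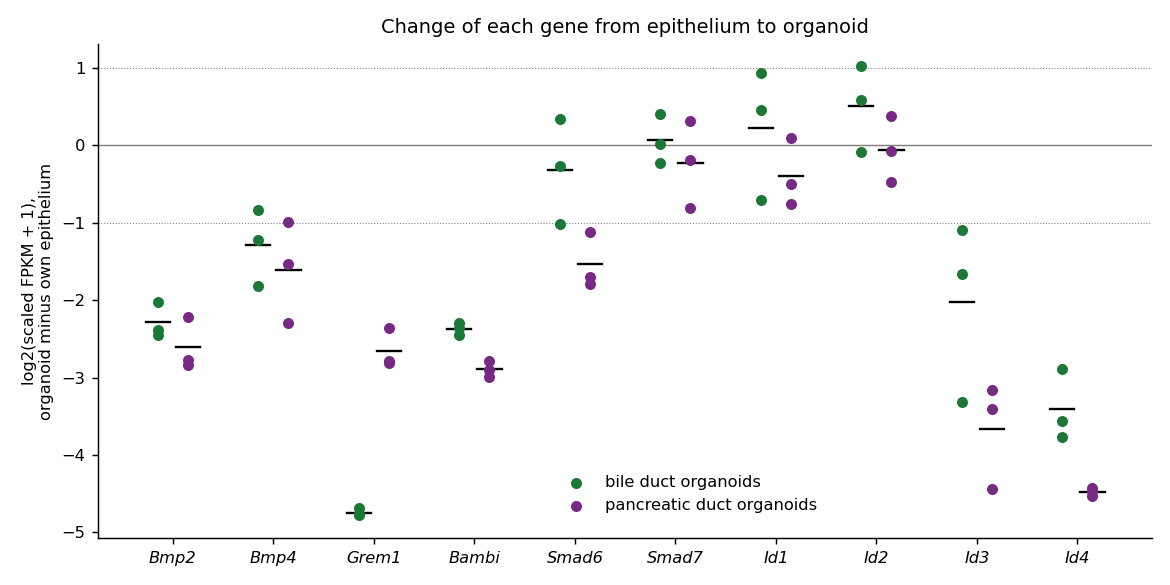
For each member, the log2 difference of scaled FPKM + 1 between each organoid and the epithelium of its own organ is plotted as a point (green bile duct, purple pancreatic duct), with the mean of 3 as a bar; dotted lines mark a 2-fold change. All points of Bmp2, Grem1, Bambi, Id3 and Id4 lie under the lower dotted line, while Id1, Id2 and Smad7 have points on both sides of 0.

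The other genes of the pathway were followed in 8 lists of 63 genes, of which 46 could be tested. In organoids 26 of the 46 fell, 7 rose and 13 did neither, beside 31.1% lower and 26.3% higher over all genes tested. Of the 46, 8 passed the filter through the epithelia alone and 3, all among the rises, through the organoids alone (Bmp8a, Bmp8b and Acvr2b). Among the other ligands 4 of 11 were tested. Bmp8b measured 0.0706 and 0.379 FPKM in the epithelia and 3.57 to 17.99 FPKM in the organoids, where it exceeded Bmp2 in each library. Bmp8a measured 0.304 and 0.0964 FPKM in the epithelia and 0.984 to 1.43 FPKM in the organoids. Both passed the filter through the organoids alone and had to differ. These are close paralogs, so reads may have been shared between them in counting. Bmp6 fell by 3.41 (SE 0.49). Bmp7, a ligand that Gremlin 1 also binds, measured 1.32 and 1.615 FPKM in the epithelia and 0.0923 to 0.560 FPKM in the organoids; it passed the filter through the epithelia alone and had to differ.

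Of the receptors and co-receptors 9 of 11 were tested, with 6 lower, 1 higher and a median log2 difference of -1.41, beside -0.04 over all genes tested. Eng and Acvrl1 encode a co-receptor and a type I receptor typical of endothelium. Eng measured 117 and 164 FPKM in the epithelia and 0.0344 to 0.149 FPKM in organoids, and Acvrl1 measured 37.5 and 54.3 FPKM against 0.294 to 1.41 FPKM. Eng passed the filter through the epithelia alone and had to differ. Rgma, a co-receptor, fell by 2.21 (SE 0.31). The main type I receptor gene Bmpr1a stayed abundant at 14.8 to 20.4 FPKM in organoids, against 27.0 and 26.4 FPKM in the epithelia, a log2 difference of -0.55 (SE 0.13, limma adjusted p = 0.0096) that no longer passed on deposited values (-0.24, adjusted p = 0.162). Acvr2b, a type II receptor gene, measured 0.698 and 0.708 FPKM in the epithelia and 1.21 to 2.03 FPKM in the organoids, and it too passed the filter through the organoids alone.

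With scaling, the signal-carrying Smads differed little. Smad1 differed by -0.03 (SE 0.21) and Smad5 by -0.36 (SE 0.14), and neither passed the test (limma adjusted p = 0.910 and 0.0660). Smad4, the partner shared with TGF-beta signalling, rose by 0.41 (SE 0.09, limma adjusted p = 0.0079). On deposited values the differences were 0.26 for Smad1, -0.05 for Smad5 and 0.72 for Smad4. Smad9 reached 1 FPKM in too few libraries to be tested.

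Secreted antagonists and modulators other than Grem1 were the list with the most falls, 9 of 10 tested among 15 genes, of which 4 passed the filter through the epithelia alone. Fstl1, a secreted glycoprotein of stroma, measured 124 and 239 FPKM in the epithelia and 0.113 to 2.46 FPKM in organoids. Nbl1, a secreted BMP antagonist related to Gremlin 1, measured 91.9 and 78.3 FPKM against 0.730 to 9.66 FPKM. These falls, like those of Grem1, went with the near absence of fibroblast and smooth muscle markers, whose part was not tested.

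Beyond the Id genes, 3 of 5 other targets were tested and all 3 were lower. Hey1, a repressor also driven by Notch, fell by 3.09 (SE 0.14), Atoh8 by 2.48 (SE 0.61) and Msx1 by 1.33 (SE 0.30). Hey1 and Msx1 entered the test through the epithelia alone. Of the E protein genes, whose products Id proteins bind, Tcf3 rose by 1.06 (SE 0.09, limma adjusted p = 6.88e-05) and Tcf4 fell by 1.98 (SE 0.15). Tcf3 was 15.5 and 15.8 FPKM in the epithelia and 30.7 to 38.9 FPKM in organoids. Tcf12 differed by -0.35 (SE 0.12, limma adjusted p = 0.0456) with scaling and by -0.07 (adjusted p = 0.667) on deposited values.

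Of 4 intracellular regulators, Ski, a Smad co-repressor, fell by 0.90 (SE 0.21). Smurf2, a ubiquitin ligase for Smads and receptors, differed by -0.57 (SE 0.18, limma adjusted p = 0.0278), and by -0.26 on deposited values (adjusted p = 0.189). The TGF-beta branch showed a median of -0.10 over 10 genes. In it Smad3 rose by 0.97 (SE 0.24) and Smad2 by 0.49 (SE 0.09), while the ligand gene Tgfb2 fell by 2.00 (SE 0.47) and the receptor gene Tgfbr2 by 0.68 (SE 0.12). Scaling bears on the small changes here: it lowered organoids relative to epithelia by 0.33 on the log2 scale, and of all genes called, 45.7% were higher in organoids with scaling and 60% without. Of the pathway calls, those of Bmpr1a, Smurf2, Tcf12 and the BMP modulator gene Twsg1 (-0.70 with and -0.38 without scaling) were lost on deposited values.

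**Figure D3:**
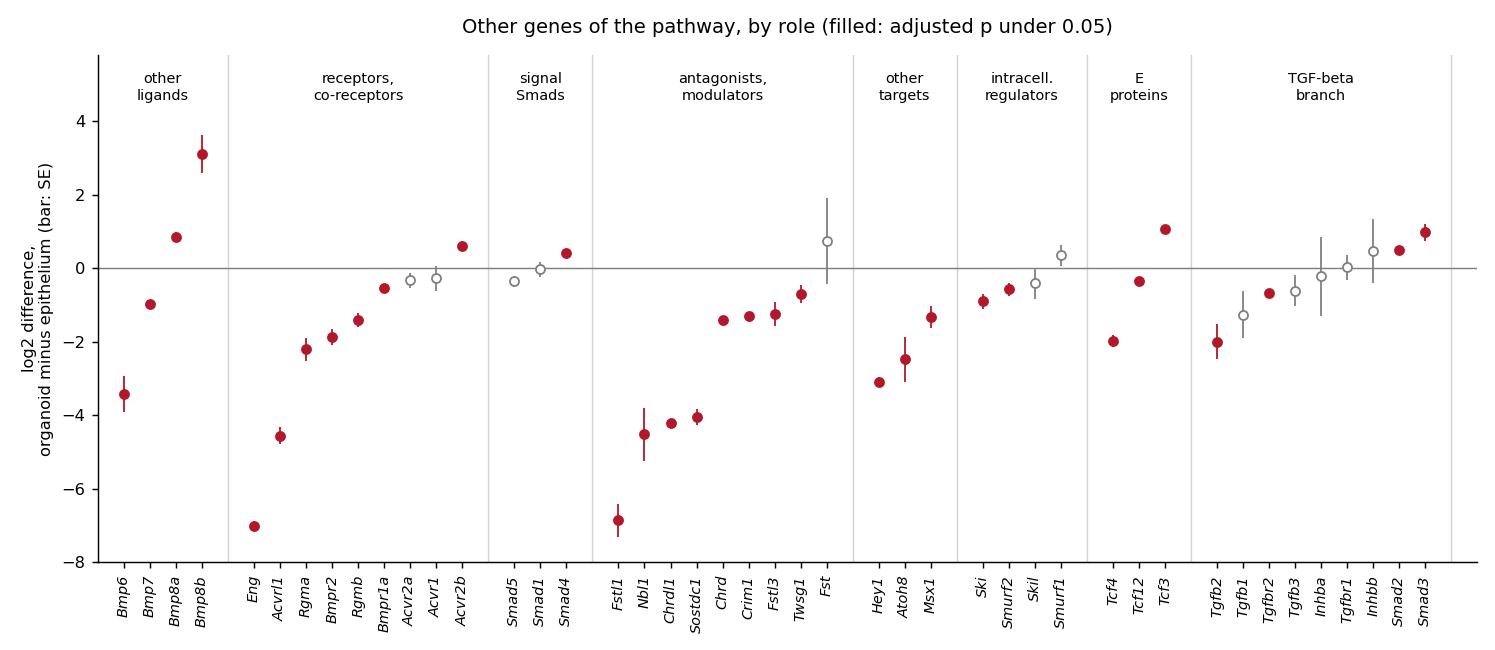
The log2 difference between organoids and epithelia is plotted for pathway genes that could be tested, grouped by role, with the SE as a bar and filled points for an adjusted p under 0.05; Sostdc1 was listed at 0 in all 6 organoids, so its value depends on the pseudocount. Antagonists, receptors and other targets lie mostly under 0, whereas the signal Smads and the TGF-beta branch lie on both sides of it.

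The second comparison asks whether bile duct and pancreatic duct organoids differed in the pathway. No member did by limma over 12106 genes, where 0 genes passed and 307 had an unadjusted p under 0.05, none of them a member. With 1 organoid left out at a time, 162 to 1018 genes had an unadjusted p under 0.05. The most came without bile duct organoid 1, where the log2 differences of Id3 (1.71) and Id1 (1.00) were among them; their limma adjusted p was 0.565. Id3 had the widest difference, with a mean of 27.6 FPKM over 3 bile duct organoids and 11.3 FPKM over 3 pancreatic duct organoids. That is a log2 difference of 1.07 (SE 0.62, 95% interval -0.45 to 2.58). For Id1, bile duct organoids gave 232 ± 118 FPKM (SD, n = 3) and pancreatic duct organoids 148 ± 47.0 FPKM (SD, n = 3), a log2 difference of 0.54 (interval -0.54 to 1.62). The intervals were -0.54 to 1.06 for Id2, -0.43 to 1.41 for Smad6, -0.70 to 0.84 for Smad7 and -0.69 to 1.22 for Bmp4, so a log2 difference of 1 lies inside each of them but that of Smad7. The adjusted p was 0.9995 for all 6 by limma. Id4, Bambi, Bmp2 and Grem1 were below 1 FPKM in too many organoids to be tested. The organoid groups overlapped for each of the 10 members, while 6.69% of the genes tested had groups that did not overlap. With 1 organoid left out, the difference ran from 0.59 (without bile duct organoid 2) to 1.71 for Id3 and from 0.18 (without the same organoid) to 1.00 for Id1. None of 36 other pathway genes tested passed, with 0 at an unadjusted p under 0.05.

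Within the organoids, the Id genes kept nearly the same order of libraries irrespective of organ. Bile duct organoid 2 was highest for all 4 Id genes. Bile duct organoid 1 and pancreatic duct organoid 2 were the lowest pair for Id1, Id2 and Id3, and also for Id4, whose order at these low levels is uncertain. Atoh8 followed this order, with 3.96 FPKM in bile duct organoid 2, 0.154 FPKM in bile duct organoid 1 and 0.0219 FPKM in pancreatic duct organoid 2. Hey1 did not: at 0.0142 to 0.135 FPKM from 1 to 8 reads, it was highest in bile duct organoid 1 and lowest in bile duct organoid 2. Msx1, at 0.0710 to 0.749 FPKM, followed the order in part, with bile duct organoid 2 highest and pancreatic duct organoid 2 lowest. Each bile duct organoid was above every pancreatic duct organoid for Msx1, bile duct organoid 1 (0.426 FPKM) among them. For Smad7 and Bmp2 the libraries lowest in the Id genes were the highest pair, while the rest of their order was not that of the Id genes reversed. For Bmp4 and Smad6 the same pair and bile duct organoid 2 made up the highest 3. From the highest to the lowest organoid, Id1 spanned 3.16 times, Id2 2.29 times, Smad6 3.27 times, Smad7 2.35 times and Bmp4 2.91 times.

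The same libraries differed in other measures. The sum of 7 proliferation markers was 223 FPKM in bile duct organoid 1 and 164 FPKM in pancreatic duct organoid 2, the lowest of the 6, against 255 to 339 FPKM in the others. Their immediate early sums, 378 and 452 FPKM, were the highest of the organoids. Over the genes tested, the deviations of these 2 libraries from their group means correlated with r = 0.65 across genes, which are not independent replicates. The nerve and Schwann marker sums of these 2 libraries, 11.53 and 9.595 FPKM, were also the highest, against 1.43 to 3.76 FPKM in the others. Not every marker sum set this pair apart. The part of these measures in the order of the Id genes was not tested.

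**Figure D4:**
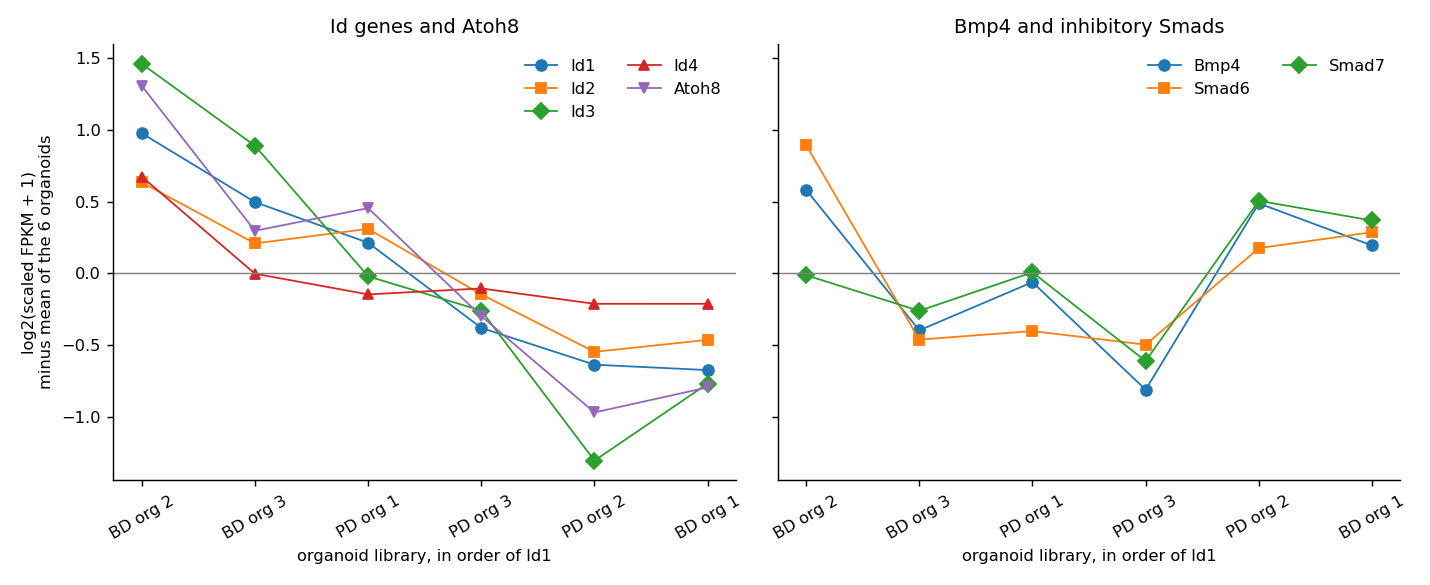
The 6 organoids are placed along the x axis in order of Id1, and the y axis gives log2(scaled FPKM + 1) minus the mean of the 6 for Id1 to Id4 and Atoh8 (left) and for Bmp4, Smad6 and Smad7 (right); lines only join the points of a gene. The left curves run downward with Id1, while on the right pancreatic duct organoid 2 and bile duct organoid 1, at the low end of Id1, are above the mean.

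The epithelia, with 1 library each, were compared without a test. The bile duct library was lower for 9 of the 10 members and higher for Grem1. The share of all genes lower in bile duct by any amount was not computed, so this count shows nothing particular to the members. Only Grem1 reached 2-fold, with a log2 difference of 1.97 from bile duct to pancreatic duct epithelium (26.5 against 6.02 FPKM), while 13.9% of 15092 genes did so, 9.24% with the higher level in bile duct and 4.64% with the lower. Id4 (-0.76), Smad6 (-0.74) and Id3 (-0.58) had the next widest differences, all lower in bile duct. Bmp4 (-0.06), Id1 (-0.09) and Bmp2 (-0.15) were the closest. The libraries also differed in their other cell kinds: the endothelial sum was 699 FPKM in bile duct against 1143 FPKM in pancreatic duct, the smooth muscle sum 2542 against 4331 FPKM and the fibroblast sum 1909 against 2002 FPKM. Other sums were higher in bile duct: duct epithelium 2574 against 563 FPKM, hepatocyte 383 against 117 FPKM, intestinal absorptive cells 316 against 13.9 FPKM and immune cells 240.8 against 209.5 FPKM. Their part in these differences was not tested.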

How the data were processed

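Per the labels' protocols, libraries came from poly-A RNA with a kit of the NEBNext Ultra series. The submitters' processing notes name HISAT2 2.1.0, Bowtie2 2.2.3, TopHat2 and HTSeq 0.6.0, with no role given; which of them made the values, the genome build, the annotation and whether counting used strand are not given in the sources used here. The authors deposited 1 table of FPKM values with no counts. The unit was read from the values. FPKM times the exon length in GENCODE M21 came out as whole reads within 0.05 of a read in all 8 libraries for 28301 genes (90.6%), among them Id1, Id2, Id3, Smad6, Smad7, Bmp2 and Grem1. The same lengths gave no whole reads for Id4, Bambi and Bmp4, so no read numbers are given for these. Read numbers cover counting error only, and at the depths found 1 read per kb of exon is 0.0480 to 0.0777 FPKM. Coordinates of genes were taken from the deposited table and match GENCODE M21 (GRCm38) for all members but Id4 and Bambi.

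FPKM was scaled by a trimmed mean of log ratios, trimming 30% of ratios and 5% of levels on each side, over 8 libraries or over the 6 organoids. Genes with at least 1 FPKM in 2 of 8 libraries, or in 3 of 6 organoids, were tested on log2(FPKM + 1) with limma and an intensity trend, and p-values were adjusted by Benjamini-Hochberg with a threshold of 0.05. A pseudocount of 1 understates the change of low genes. The design had provided a count test had the file held counts; the FPKM test took its place. The epithelia are 1 library each, so the fit over 8 libraries assumes the same change in both organs, and comparisons of single libraries carry no test. On simulated data with 200 changed genes, the fit of organoids against epithelia recovered 199 among 14919 genes, with 17 false calls. The fit of the organoid groups recovered 200, with 14 false calls. The simulated noise was equal for all genes and smaller than that of Id3 and Id1 between organoid groups (SE 0.62 and 0.44). Far fewer genes changed than were called in the data. These counts therefore check the code and do not give the power for the members.

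All 10 members are named; of each pathway list, at most the 3 genes with the largest rise and the 3 with the largest fall among those that passed, and a few others as background. Some genes that met this rule or belong to the lists are counted but not reported here by name. Hjv was matched under its older symbol Hfe2. The members and lists were chosen with earlier results of these data known. Alternatives covered scaling, pseudocount, filter, trend, organ term, replicate block and leaving out each library. Software was R 4.3.3, limma 3.58.1, Python 3.11.15, pandas 2.3.3, numpy 2.4.6 and matplotlib 3.10.9.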

Additional observations from a re-analysis of the deposited data

Results flagged for a closer look

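In 4 of the 34 genes examined, 10 members among them, the highest of the 6 organoids stood far from the rest, by a gap to the next value that took over 0.625 of the whole range. Chance flags about 1 in 20 groups in this way. Id4 measured 1.03 FPKM in bile duct organoid 2 and 0.272 FPKM in the next organoid, a gap of 0.815 of the range. Grem1 measured 0.371 FPKM in pancreatic duct organoid 2 and 0.0663 FPKM in the next (0.821 of the range). Fstl1 measured 2.46 FPKM in pancreatic duct organoid 2 and 0.717 FPKM in the next (0.743). Tgfbr2 measured 40.7 FPKM in pancreatic duct organoid 1 and 33.6 FPKM in the next (0.692).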

How the results depend on the processing

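With either epithelium left out, genes called between organoids and epithelia dropped from 8562 (3917 higher) to 4340 (2288 higher) without bile duct and 3809 (1994 higher) without pancreatic duct epithelium, and members called from 6 to 2 and 1. Over all leave-one-out fits the ranges were 3809 to 8826 genes, 1994 to 4059 higher, and 1 to 7 members. On reads recovered from the FPKM (limma voom, chosen after seeing the data), 3 of the 7 members with reads were called, all lower (Id3, Bmp2 and Grem1, the last 2 through the epithelia alone), beside 30.7% of 12770 genes called lower. With the deposited scaling, 9156 genes were called, 5497 of them higher. Id1 reversed to 0.25 on deposited values, 0.13 without bile duct organoid 1, 0.02 without pancreatic duct organoid 2 and 0.13 without the pancreatic duct epithelium. Smad7 reversed to 0.21 on deposited values and 0.06 without pancreatic duct organoid 3, and Id2 to -0.18 without the bile duct epithelium. Leaving out 1 library at a time gave ranges of -0.52 to 0.13 for Id1, -0.18 to 0.41 for Id2 and -0.34 to 0.06 for Smad7. The lowest limma adjusted p-values over the alternatives were 0.00825 for Bmp4, 0.00546 for Id3 and 0.0311 for Smad6, and each of these also had alternatives without a call. Id4, Bambi, Bmp2 and Grem1 were called in every alternative that tested them. Bambi, Bmp2 and Grem1 passed the filter through the epithelia alone and had to differ. They were not tested when either epithelium was left out, so their calls are no sign of stability.

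Between the organoid groups, 11 genes (1 higher in bile duct) were called without pancreatic duct organoid 3 (range 0 to 11, and 0 to 1 higher). Smad7 then reversed to -0.23 and Bmp4 to -0.09, and without bile duct organoid 1 Smad7 reversed to -0.11. The ranges with 1 library left out were -0.23 to 0.35 for Smad7, -0.09 to 0.58 for Bmp4, 0.59 to 1.71 for Id3, 0.18 to 1.00 for Id1, 0.00 to 0.55 for Id2 and 0.16 to 0.84 for Smad6. The shared replicate numbers did not pair the organoids (r = -0.106, -0.441 and 0.481 for numbers 1, 2 and 3), and with the replicate block 0 genes and 0 members were called. A minimum of 5 FPKM reduced the genes counted in bile duct organoids against their epithelium from 5881 to 3800, and between epithelia from 2094 to 1233 (856 higher in bile duct). In bile duct, 5 members were counted on deposited values and 6 with scaling. A higher minimum counts fewer genes by its construction; the cause of the other shifts was not tested. Depth limits Grem1 in organoids, at 0 to 28 reads, and Bmp2, at 7 to 51 reads.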

Other observations

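Follistatin and activin genes, chosen after their values were seen, also varied widely between organoids. Fst, the gene of the activin and BMP antagonist follistatin, measured 7.86 FPKM in bile duct epithelium and 5.29 FPKM in pancreatic duct epithelium. Its bile duct organoid values were 52.4, 0.973 and 4.40 FPKM, and its pancreatic duct organoid values were 18.6, 30.1 and 9.17 FPKM, a span of 53.9 times that was wider than that of any Id gene. Inhba, an activin subunit gene, ranged from 1.32 to 35.9 FPKM and Inhbb, its relative, from 1.29 to 24.5 FPKM. Bile duct organoid 1 and pancreatic duct organoid 2, the lowest pair for the Id genes, were the highest pair for each of these 3 genes. None of the 3 passed the limma test between organoids and epithelia (adjusted p from 0.618 for Fst to 0.8725 for Inhba) or between the organoid groups.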
